A study of Mus musculus with 12 samples.

Results

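The major histocompatibility complex (MHC) class II genes and the factors that switch them on were followed in mouse liver, as 10 listed genes. They comprise the chains H2-Aa, H2-Ab1 and H2-Eb1, the peptide editor H2-DMa and H2-DMb1, the invariant chain Cd74, the transactivator Ciita, and the regulatory factor X subunits Rfxank, Rfx5 and Rfxap. A probe set, a group of array probes summarised as 1 value, was taken where the platform annotation gave it a single symbol from this list. That rule found 15 of the 22626 probe sets measured, for 9 of the 10 genes, with 8 probe sets for the antigen-presenting proteins and 7 for the regulators. H2-DMb1 had no probe set of its own, since both that name it also name H2-DMb2. The genes were chosen from earlier results of these same arrays, that is with the group differences in these expression values known, and Rfxank was singled out by showing all of its probe sets. Differences between groups are therefore given for these genes as descriptions and not as tests. Calls from the fit over all probe sets are counted for them below, and nothing is read from those calls.

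The arrays came from 12 C57Bl/6J mice aged 6-8 weeks, 3 separate animals in each of 4 groups. Aag (gene symbol Mpg) is the glycosylase that starts base excision repair by removing alkylated bases, and MMS is methyl methane sulfonate, which alkylates DNA. The groups were Aag knock-out mice given MMS (MMS KO), Aag knock-out mice without it (untreated KO), wild-type mice given MMS (MMS WT) and wild-type mice without it (untreated WT). MMS was a single injection of 75 mg/kg into the peritoneum, and livers were taken 6 hours later. The labels name no vehicle for the untreated mice, no sex, and no promoter or cell type limit for the knock-out. The design asks how liver expression responds to alkylation with and without Aag.

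Class II molecules hold peptides from material a cell has taken up and show them to CD4+ T cells. Among the liver cells that carry them are dendritic cells, B cells and macrophages such as Kupffer cells, while hepatocytes make little of them at rest. Transcription depends on a shared promoter module. Its X box is bound by the regulatory factor X complex, made of Rfx5, Rfxap and Rfxank, and its Y box by NF-Y, and Ciita, which interferon gamma induces, docks on the assembled complex without binding DNA itself.

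RefSeq promoter windows of GRCm38.p6, each 250 bases before to 50 bases after a transcription start, matched 6 of the 10 genes in 7 windows. H2-Ab1, Cd74, Ciita and Rfxap were not among them. The 3 stretches below are shown because they carry the module that the regulators act on, and they are written 5′ to 3′ on the gene's strand with the letters of an X-box core (GNAAC) and of a Y-box core (GATTGG) in capitals.

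H2-DMb1, chr17:34153082-34153149 (+): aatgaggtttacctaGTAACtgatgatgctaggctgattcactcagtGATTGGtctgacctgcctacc
H2-Aa, chr17:34287852-34287919 (-): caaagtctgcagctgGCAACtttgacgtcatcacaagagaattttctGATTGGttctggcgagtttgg
H2-Eb1, chr17:34305761-34305827 (+): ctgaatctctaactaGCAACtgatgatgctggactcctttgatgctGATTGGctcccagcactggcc

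The Y-box letters began 62 bases before the annotated start in H2-DMb1, 49 bases in H2-Aa and 60 bases in H2-Eb1. The X-box letters began 32, 32 and 31 bases farther upstream. Searched on both strands, GATTGG was present in 16.1% of all 32851 windows and GNAAC in 84.8%, so neither alone is rare. The ordered pair at a spacing of 31 to 32 bases was present in 42 windows, or 0.128%, which belong to 39 genes and include H2-Eb2 and H2-Oa besides the 3 printed. It was in 3 of the 7 windows of the listed genes, and H2-DMa, with GNAAC and GATTGG present, did not hold the pair. The spacing was set after reading these promoters, so the share describes the windows and tests nothing. A match is a run of letters, and binding was not measured here.

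The liver label fitted the arrays, with a mean of 13.68 to 13.99 on the log2 scale over 6 hepatocyte genes in each of the 12 arrays. For Mpg, probe set 1417571_at read 5.75, 5.34 and 5.32 in MMS KO and 5.44, 5.60 and 4.95 in untreated KO, against 6.40, 6.94 and 6.80 in MMS WT and 6.21, 6.49 and 6.58 in untreated WT. All knock-out arrays lay below all wild-type arrays there, while a second Mpg probe set, 1417572_at, overlapped between genotypes. Which part of the gene was deleted is not given in the labels. Array medians ranged from 7.42 to 7.75. Every value below is a log2 expression level of 1 probe set on 1 array, and every difference is in log2 units with its standard error (SE) from a fit of all 12 arrays with limma. A call means an adjusted p under 0.05 over all 22626 probe sets. With RNA from whole liver, fewer cells of a type and less RNA per cell cannot be told apart.

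For the class II chains, H2-DMa and Cd74 the spread between animals was smallest in untreated WT for all 8 probe sets. Of these, 0 passed limma's threshold in each of the 7 comparisons made, where the share of all probe sets called lay between 0% and 11.3%. That share was 0.0398% between untreated genotypes and 0.0177% between treated genotypes, so a count of 0 there says little about these genes. In untreated KO against untreated WT all 8 of these probe sets had a positive difference, with a median of 0.38 against -0.02 over all probe sets. After MMS in WT all 8 had a negative difference, with a median of -0.34 against -0.05 over all. These 2 comparisons share the untreated WT arrays. The MMS difference in KO was negative for 6 of 8 (median -0.18 against -0.06 over all), but without untreated KO array 1 that median was 0.12, and without it the untreated genotype median was 0.09. The difference of MMS KO against MMS WT was positive for 7 of 8 (median 0.42 against 0.02), with a median of 0.24 without MMS WT array 3, 0.27 without MMS KO array 3 and 0.73 without MMS WT array 2. The median for MMS in WT was -0.60 without MMS WT array 2, -0.16 without array 1 and -0.17 without array 3.

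H2-Aa encodes the alpha chain of the A molecule, the classical class II molecule that presents peptide in this strain. Its probe set with the higher mean, 1435290_x_at, read 9.82, 10.04 and 11.05 in MMS KO, 11.68, 11.03 and 10.71 in untreated KO, 10.48, 10.59 and 9.97 in MMS WT, and 10.82, 10.77 and 10.62 in untreated WT. The MMS WT arrays all lay below the untreated WT arrays, and the knock-out groups overlapped through MMS KO array 3. The MMS difference was -0.84 ± 0.32 in KO and -0.39 ± 0.32 in WT (SE, n = 3 per group). Without MMS KO array 3 the KO difference was -1.21, and since that is the array that made the groups overlap, nothing more is read from its removal.

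H2-Ab1 encodes the beta chain that pairs with H2-Aa. Its probe set 1450648_s_at read 10.88, 11.10 and 11.80 in MMS KO, 12.21, 11.74 and 11.44 in untreated KO, 11.23, 11.25 and 10.76 in MMS WT, and 11.49, 11.45 and 11.37 in untreated WT. As for H2-Aa, every MMS WT array was below every untreated WT array, and MMS KO array 3 was the one treated knock-out array inside the untreated KO range. The MMS difference was -0.54 ± 0.25 in KO and -0.35 ± 0.25 in WT, and without MMS KO array 3, again the overlapping one, the KO difference was -0.81. The untreated KO arrays averaged 11.80 ± 0.39 and the untreated WT arrays 11.44 ± 0.06 (SD, n = 3 each), a difference of 0.36 ± 0.25 (SE) with overlapping arrays.

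H2-Eb1 encodes the beta chain of the E molecule. C57BL/6 mice are known to lack a working H2-Ea, the matching alpha chain. H2-Eb1 read 9.10, 9.40 and 9.90 in MMS KO, 10.53, 9.74 and 9.40 in untreated KO, 9.03, 9.63 and 8.49 in MMS WT, and 9.30, 9.32 and 9.17 in untreated WT. All untreated KO arrays were above all untreated WT arrays, while the MMS groups overlapped. The difference was 0.62 ± 0.33 between untreated KO and untreated WT, and 0.42 ± 0.33 between MMS KO and MMS WT. The 3 H2-Ea probe sets, chosen after their values were seen, lay at 5.86 to 7.04 for 1422891_at, 4.45 to 5.00 for 1422892_s_at and 2.86 to 3.48 for 1426202_at over the 12 arrays.

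Cd74, the invariant chain that guards the empty class II groove and directs the molecule to endosomes, read 11.71, 12.001 and 12.19 in MMS KO, 12.59, 12.08 and 11.89 in untreated KO, 11.42, 12.18 and 11.43 in MMS WT, and 11.87, 11.75 and 11.75 in untreated WT. Again the untreated KO arrays lay above the untreated WT arrays, the lowest by a margin of hundredths, and the other comparisons overlapped. The untreated KO against untreated WT difference was 0.39 ± 0.23, and the MMS differences were -0.22 ± 0.23 in KO and -0.12 ± 0.23 in WT.

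H2-DMa is the alpha chain of the editor that exchanges the invariant chain remnant for peptide. It read 7.34, 7.46 and 7.65 in MMS KO, 8.07, 7.44 and 7.002 in untreated KO, 6.61, 7.73 and 6.87 in MMS WT, and 7.40, 7.32 and 7.55 in untreated WT. All groups overlapped, and MMS WT array 2 stood well above the other two MMS WT arrays. The probe set 1418638_at, shared by the beta chain genes H2-DMb2 and H2-DMb1, read 6.64, 7.38 and 6.18 in MMS KO, 7.11, 6.03 and 5.90 in untreated KO, 5.16, 6.45 and 5.41 in MMS WT, and 5.99, 5.99 and 6.27 in untreated WT. It also overlapped in each comparison and peaked on array 2 within MMS WT.

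**Figure D1:**
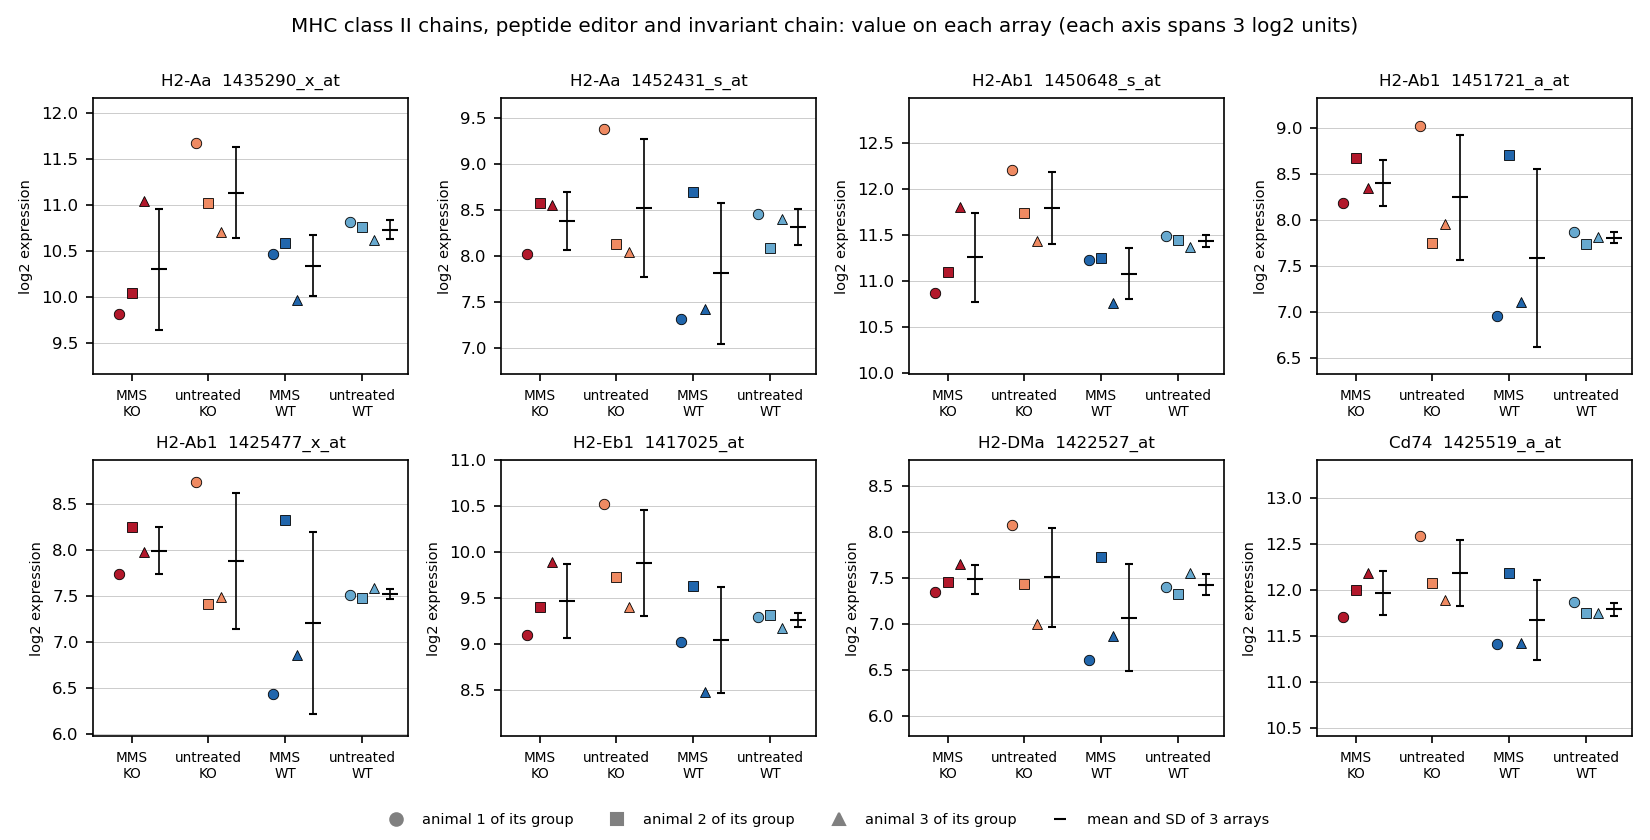
Log2 expression on each of the 12 arrays (y axis) for the 8 probe sets of H2-Aa, H2-Ab1, H2-Eb1, H2-DMa and Cd74, with the groups on the x axis, a symbol for each animal, and beside them the mean and SD of the 3 arrays. The untreated WT arrays lie close together in every panel, and the SDs there range from 0.0556 to 0.200.

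Probe sets of a single gene did not always follow the same animals. The 2 other H2-Ab1 probe sets, 1451721_a_at and 1425477_x_at, tracked each other at Pearson r = 0.989 over the 12 arrays, but tracked 1450648_s_at at only 0.442 and 0.464. For H2-Aa, 1435290_x_at and 1452431_s_at gave r = 0.607, and 0.345 without the 2 arrays farthest from the median. In contrast, H2-Aa 1435290_x_at and H2-Ab1 1450648_s_at, from different genes, gave r = 0.977, with 0.995 for deviations from the group means and 0.959 without the 2 farthest arrays. These correlations describe arrays that share processing, group and animal, and carry no test.

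The split is plain in the arrays themselves. H2-Ab1 1451721_a_at read 8.18, 8.67 and 8.35 in MMS KO, 9.02, 7.76 and 7.96 in untreated KO, 6.96, 8.70 and 7.11 in MMS WT, and 7.87, 7.74 and 7.82 in untreated WT. MMS WT array 2 was thus far above the other two of its group here but level with array 1 on 1450648_s_at. The gap between the probe sets, 1450648_s_at minus 1451721_a_at, was 4.27, 2.55 and 3.65 on the MMS WT arrays, against 3.63, 3.70 and 3.56 on the untreated WT arrays. H2-Aa 1452431_s_at showed the same split, with 8.02, 8.58 and 8.55 in MMS KO, 9.38, 8.12 and 8.05 in untreated KO, 7.31, 8.69 and 7.42 in MMS WT, and 8.45, 8.08 and 8.40 in untreated WT. For MMS in KO, the H2-Ab1 difference was -0.54 ± 0.25 on 1450648_s_at, 0.15 ± 0.43 on 1451721_a_at and 0.11 ± 0.45 on 1425477_x_at, so its sign depended on the probe set. What separates the probe sets was not tested, and whether their probes also bind other transcripts was not checked.

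The spread among animals was least in untreated WT for all 8 of these probe sets. Their SD had a median of 0.286 in MMS KO, 0.557 in untreated KO and 0.580 in MMS WT, against 0.0746 in untreated WT. Untreated WT was also the least variable group over the whole array, where it had the smallest SD for 45.7% of probe sets and a median SD of 0.138, against 0.239 in MMS KO, 0.194 in untreated KO and 0.234 in MMS WT. A class II profile was taken as the mean of the centred values of H2-Aa 1435290_x_at, H2-Ab1 1450648_s_at, H2-Eb1 and Cd74. These are the brightest probe sets of each gene, so the other H2-Aa and H2-Ab1 probe sets, which followed other animals, do not enter it. The profile was -0.46, -0.20 and 0.40 in MMS KO, and 0.91, 0.31 and 0.02 in untreated KO. It was -0.30, 0.08 and -0.68 in MMS WT, and 0.03, -0.02 and -0.11 in untreated WT. Untreated KO array 1 stood highest and MMS WT array 3 lowest on this class II profile.

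**Figure D2:**
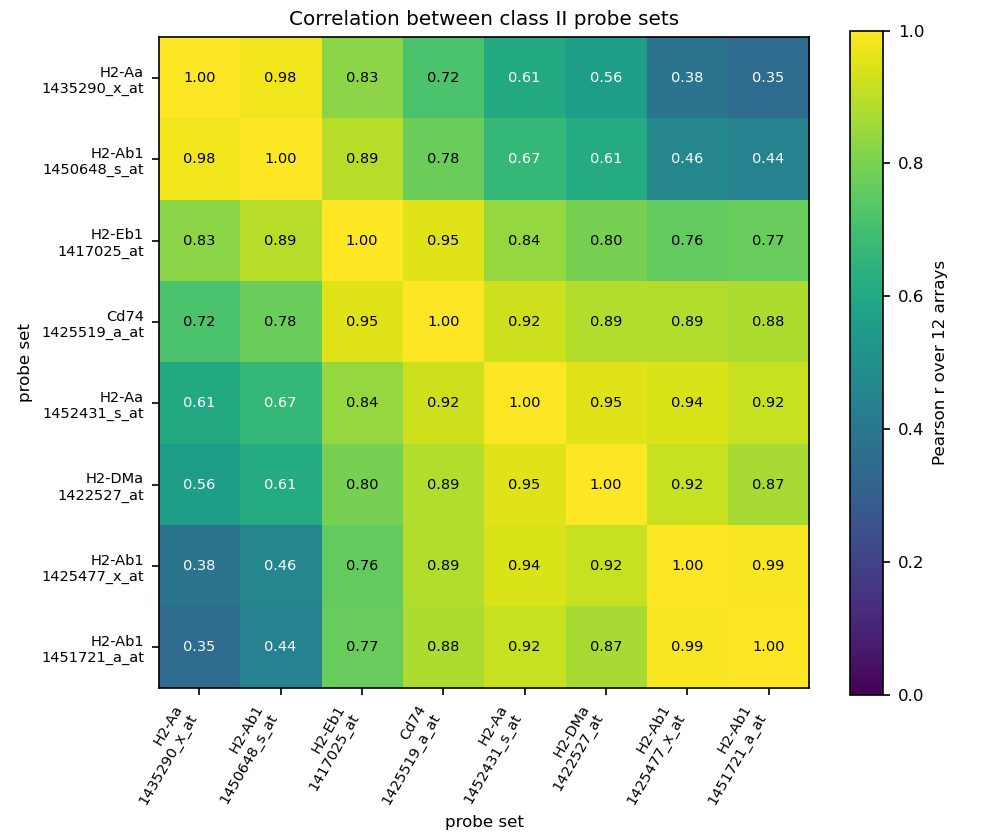
Pearson r over the 12 arrays between each pair of the 8 class II probe sets, as a coloured grid with probe sets on both axes. The pair H2-Ab1 1451721_a_at and 1425477_x_at reaches 0.989 and H2-Aa 1435290_x_at with H2-Ab1 1450648_s_at reaches 0.977, while H2-Aa 1435290_x_at with H2-Ab1 1451721_a_at is at 0.351.

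Among the regulators, the Rfxank probe set 1455371_at stood apart, being high in untreated WT alone. Rfxank is the ankyrin repeat subunit of regulatory factor X. This probe set read 8.03, 8.04 and 8.62 in MMS KO, 8.59, 8.73 and 8.31 in untreated KO, 8.53, 8.51 and 8.88 in MMS WT, and 10.15, 9.77 and 10.11 in untreated WT. No array of the other 3 groups reached the lowest untreated WT array. The difference was -1.47 ± 0.20 between untreated KO and untreated WT, or 2.77-fold lower in KO, and -1.37 ± 0.20 for MMS in WT, or 2.59-fold lower after MMS. Both rest on the same untreated WT arrays. Within KO the MMS difference was -0.31 ± 0.20 with overlapping arrays, and MMS KO against MMS WT gave -0.41 ± 0.20. The difference between the MMS responses, KO minus WT, was 1.06 ± 0.28, and it too includes the untreated WT arrays.

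The other 2 Rfxank probe sets gave smaller differences in the same comparison. Probe set 1425670_at read 7.13, 7.42 and 7.09 in MMS KO, 7.37, 7.45 and 6.70 in untreated KO, 7.25, 7.48 and 7.32 in MMS WT, and 7.60, 7.81 and 8.09 in untreated WT. Here too all untreated WT arrays were the highest, with differences of -0.66 ± 0.20 for untreated KO against untreated WT and -0.48 ± 0.20 for MMS in WT. Probe set 1419310_s_at read 9.10, 8.80 and 8.83 in MMS KO, 8.75, 8.70 and 8.11 in untreated KO, 8.63, 9.09 and 8.95 in MMS WT, and 8.86, 9.07 and 9.18 in untreated WT. On it the untreated KO arrays lay below all others but MMS WT array 1, giving -0.52 ± 0.19 against untreated WT, whereas MMS in WT gave -0.15 ± 0.19 with overlap and MMS in KO gave 0.39 ± 0.19 with every treated array higher. The mean of the 3 probe sets gave -0.88 for untreated KO against untreated WT and was not called.

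Rfx5, the DNA-binding subunit, and Rfxap, its partner, were higher after MMS in both genotypes. Rfxap read 9.06, 9.06 and 9.08 in MMS KO, 8.36, 8.47 and 8.93 in untreated KO, 8.86, 9.16 and 9.17 in MMS WT, and 8.43, 8.66 and 8.75 in untreated WT. All treated arrays exceeded all untreated arrays of their genotype, by 0.48 ± 0.16 in KO and 0.45 ± 0.16 in WT. Rfx5 read 10.35, 10.19 and 10.44 in MMS KO, 10.06, 9.88 and 10.22 in untreated KO, 10.39, 10.44 and 10.62 in MMS WT, and 10.15, 10.09 and 10.07 in untreated WT. Its groups separated in WT (0.38 ± 0.13) and overlapped by 1 array on each side in KO (0.27 ± 0.13). The genotypes differed little in either gene, by -0.05 ± 0.13 for Rfx5 and -0.03 ± 0.16 for Rfxap without MMS.

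Ciita, the transactivator, was dim on both of its probe sets, and no detection call came with the values to tell a low signal from background. Probe set 1421211_a_at read 5.10, 5.64 and 5.52 in MMS KO, 5.91, 6.05 and 5.66 in untreated KO, 5.93, 5.88 and 5.33 in MMS WT, and 5.50, 5.69 and 5.44 in untreated WT. All MMS KO arrays were below all untreated KO arrays, by -0.45 ± 0.20, the nearest by hundredths, and the WT groups overlapped at 0.17 ± 0.20. Probe set 1421210_at read 4.78, 5.29 and 5.67 in MMS KO, 5.53, 5.70 and 5.62 in untreated KO, 5.40, 5.29 and 5.25 in MMS WT, and 5.73, 5.38 and 5.47 in untreated WT. It gave -0.37 ± 0.20 for MMS in KO and -0.21 ± 0.20 for MMS in WT, with overlap in both, so the 2 probe sets differ in sign in WT.

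**Figure D3:**
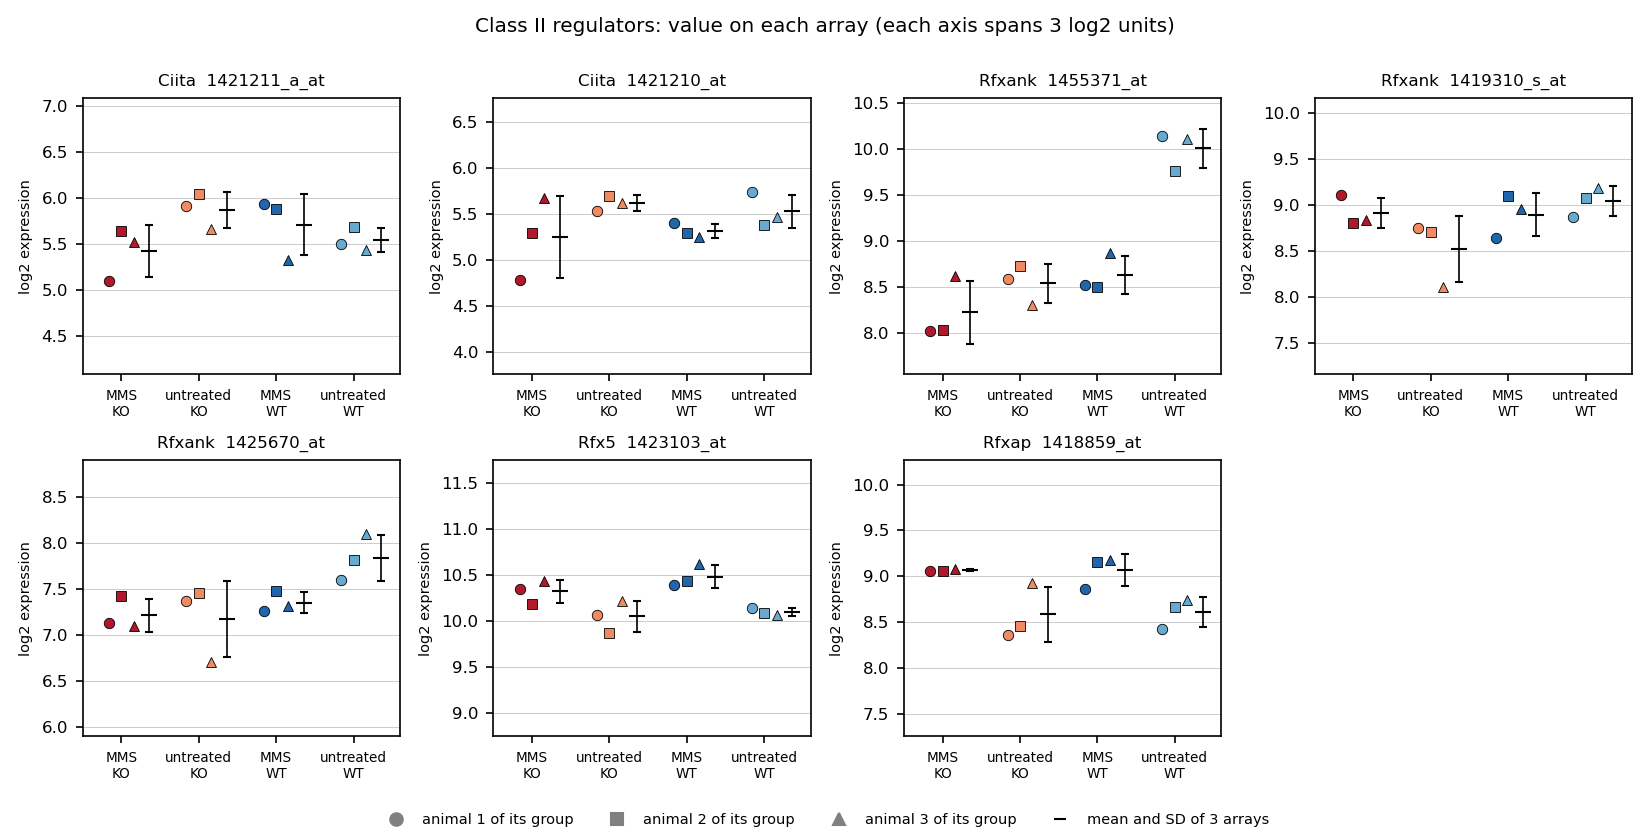
Log2 expression on each of the 12 arrays (y axis) for the 7 probe sets of Ciita, Rfxank, Rfx5 and Rfxap, with the groups on the x axis, a symbol for each animal, and beside them the mean and SD of the 3 arrays. On Rfxank 1455371_at the untreated WT arrays sit at 9.77 to 10.15 and the arrays of the other groups at 8.03 to 8.88.

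The calls over these 15 probe sets are set beside the share called among all probe sets, and nothing is read from them since the genes were chosen with these contrasts known. For MMS in WT, 1 of 15 was called (Rfxank 1455371_at, lower), against 6.44% of all probe sets. For MMS in KO limma called 0 of 15, against 1.51% of all, with 3 of 15 at an unadjusted p under 0.05. For untreated KO against untreated WT, 1 of 15 was called, again Rfxank 1455371_at, against 0.0398% or 9 probe sets in all. For MMS KO against MMS WT limma called 0 of 15, against 0.0177% of all, with 0 of 15 at an unadjusted p under 0.05. For the difference between the MMS responses limma called 0 of 15, against 0% of all, with 2 of 15 at an unadjusted p under 0.05. For MMS over both genotypes, 3 of 15 were called, with Rfx5 (0.33 ± 0.09) and Rfxap (0.47 ± 0.11) higher and Rfxank 1455371_at (-0.84 ± 0.14) lower, against 11.3% of all. For knock-out against wild type over both treatments limma called 0 of 15, against 0.0265% of all, with 3 of 15 at an unadjusted p under 0.05. Over all 22626 probe sets, an unadjusted p under 0.05 was reached by 5610 for MMS in KO and 4156 for MMS KO against MMS WT. It was reached by 4009 for the difference between the responses and by 1787 for knock-out against wild type over both treatments.

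Groups of arrays did not overlap for 6 of 15 probe sets for MMS in WT, against 31.8% of all probe sets. The same count was 3 of 15 for MMS in KO, against 26.7%, and 5 of 15 for untreated KO against untreated WT, against 18.3%. It was 0 of 15 for MMS KO against MMS WT, against 17.6%. The Rfxank call between untreated genotypes was lost on leaving out any 1 array other than MMS KO array 3 or untreated WT array 2, with a difference of -1.56 to -1.35 where it was lost. It was also lost with quantile normalization (-1.38), median centring (-1.37), only the compared groups (-1.47), a replicate block (-1.47) and the mean of the gene's probe sets (-0.88). The Rfx5 and Rfxap calls over both genotypes were both lost without MMS KO array 1, untreated KO array 1 or 2, MMS WT array 2 or 3, or untreated WT array 1 or 2. The Rfx5 call was also lost without untreated WT array 3 and the Rfxap call without MMS KO array 2, with differences of 0.28 to 0.34 for Rfx5 and 0.41 to 0.48 for Rfxap where they were lost.

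**Figure D4:**
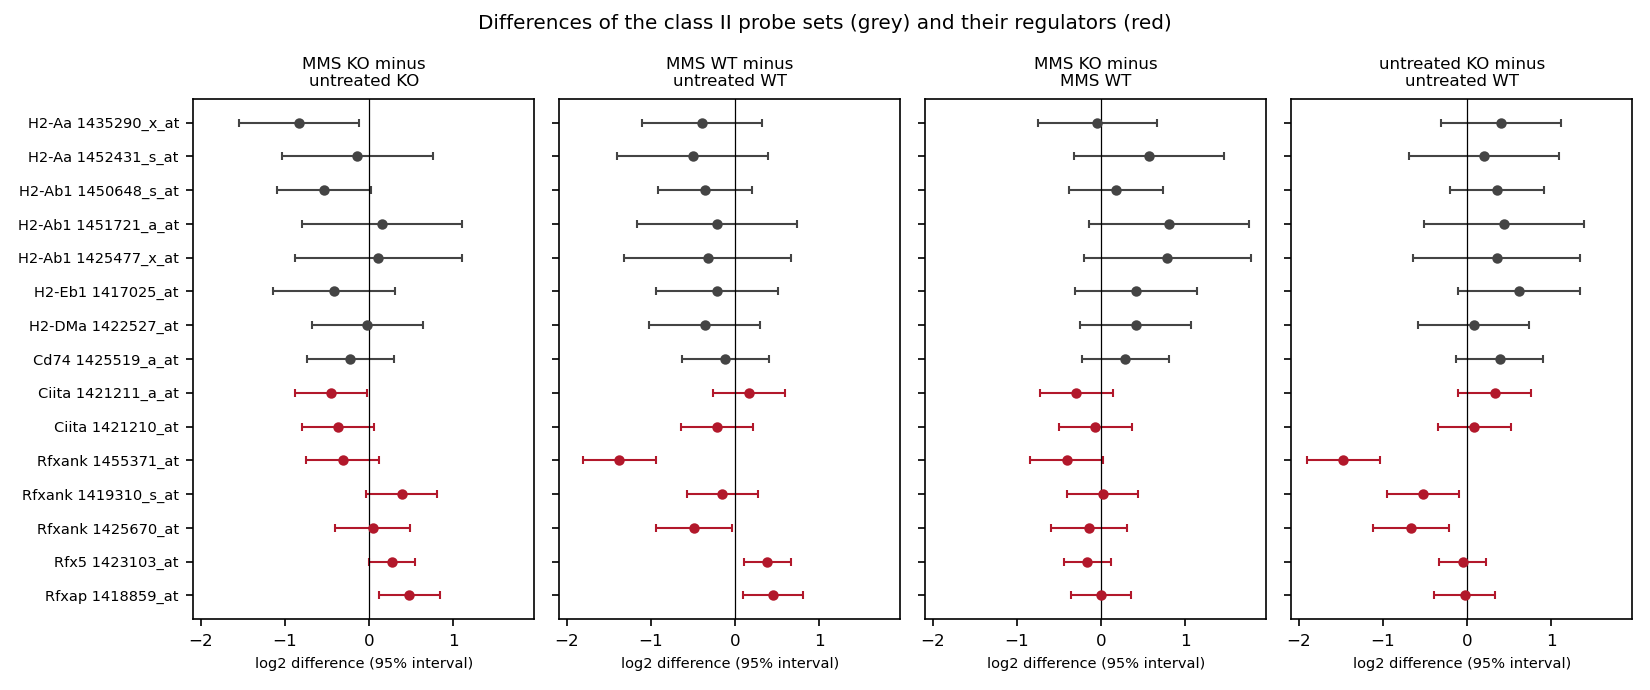
Differences in log2 expression with 95% confidence intervals for the 15 probe sets in each of the 4 group comparisons, with probe sets down the page. Rfxank 1455371_at lies at -1.47 for untreated KO against untreated WT and at -1.37 for MMS in WT, and the other probe sets lie between -0.84 and 0.81.

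The machinery around class II was read from lists that were drawn up with earlier results of these arrays known, with 1 probe set per gene (the brightest on average) and all p adjusted by limma over all 22626 probe sets. Of the genes that load and turn over class II molecules, 10 of 14 were measured. Limma called 0 of 10 in each of the 7 comparisons, with 1 or 2 at an unadjusted p under 0.05. In these comparisons limma called between 0% and 11.3% of all probe sets, and 1620 to 6238 of 22626 had an unadjusted p under 0.05. The share called was 0.0398% or less between genotypes, so a count of 0 there says little. Cathepsin S (Ctss), which trims the invariant chain, read 11.44, 11.92 and 12.09 in MMS KO, 12.37, 12.14 and 11.75 in untreated KO, 11.61, 11.83 and 11.31 in MMS WT, and 12.06, 11.74 and 12.07 in untreated WT. These ranges overlap, and its MMS difference in WT was -0.37 ± 0.22 (limma adjusted p = 0.333). Of the RFX partners and Ciita coactivators, 9 of 11 were measured and limma called 0 of 9 in each comparison. Up to 4 had an unadjusted p under 0.05, for MMS in KO, where 5610 of 22626 probe sets did. In this list the NF-Y subunit Nfyb gave the smallest p between treated genotypes, at -0.50 ± 0.12 for MMS KO against MMS WT (limma adjusted p = 0.11).

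Of 13 genes of the interferon gamma pathway, which induces Ciita, and of Ciita repressors, 12 were measured. This list mixes inducers with inhibitors such as Socs1. Limma called 0 of 12 for MMS in KO, against 1.51% of all probe sets, and 0 of 12 for MMS in WT, against 6.44%. An unadjusted p under 0.05 was found for 6 and 3 of them, against 5610 and 5245 of 22626 probe sets. In the average over both genotypes 1 rose and 1 fell, where limma called 11.3% of all. Irf1, a transcription factor of the interferon gamma pathway, rose by 0.45 ± 0.12 (limma adjusted p = 0.0408). The kinase Jak1 fell by 0.38 ± 0.11 (limma adjusted p = 0.0416). It averaged 10.83 in MMS KO against 11.41 in untreated KO, and 11.25 in MMS WT against 11.425 in untreated WT. Tap1, the peptide transporter of the class I pathway, was the 1 of 3 measured class I genes called in the average over both genotypes. It rose there by 0.48 ± 0.14 (limma adjusted p = 0.0437). Its MMS difference was 0.83 ± 0.19 in KO, with every treated array higher, and 0.14 ± 0.19 in WT, with overlap. Neither was called (limma adjusted p = 0.0558 and 0.703). From the same list, the immunoproteasome subunit Psmb9 read 10.06, 10.37 and 9.61 in MMS KO, 9.35, 9.04 and 8.995 in untreated KO, 8.99, 9.41 and 8.997 in MMS WT, and 9.28, 9.07 and 9.22 in untreated WT. The MMS KO arrays were the highest, yet the MMS difference in KO, 0.89 ± 0.20, missed the threshold (limma adjusted p = 0.0529). The interferon gamma and Ciita repressor list had 0 calls without untreated KO array 1 or 2, MMS KO array 1 or 2, or any 1 untreated WT array, and 1 without MMS WT array 2 or 3. The class I list had 0 calls without any of these or without untreated KO array 3, and 2 without MMS KO array 3.

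Markers of B cells, dendritic cells, macrophages and other liver cell types were counted for MMS in WT. In that comparison limma called 6.44% of all probe sets, and 5245 of 22626 had an unadjusted p under 0.05. For B cells 1 of 11 measured genes fell, Cd79b of the B cell receptor, by 1.36 ± 0.21 (limma adjusted p = 0.0063). It read 5.47, 6.00 and 5.65 in MMS WT against 7.13, 6.70 and 7.38 in untreated WT. Of 12 macrophage genes, Adgre1, a surface receptor of macrophages, fell by 0.98 ± 0.15 (limma adjusted p = 0.00632), and the scavenger receptor Marco rose by 1.29 ± 0.34 (limma adjusted p = 0.0467). The T cell gene Cd3e fell by 1.08 ± 0.28 (limma adjusted p = 0.0457), the 1 call among 9 T cell genes. Of 10 sinusoidal endothelial genes 4 fell, namely Kdr, Tek, Stab2 and Cdh5, and limma called 0 of 10 dendritic cell genes, with 1 at an unadjusted p under 0.05. The endothelial count became 0 without untreated WT array 1 or 3 and 2 without any 1 MMS WT array. The T cell count became 0 without any 1 array of untreated KO, MMS WT or untreated WT, and 2 without MMS KO array 3. The macrophage count became 1 without any 1 array of untreated KO, without MMS WT array 1 or 2, or without untreated WT array 1 or 3.

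The summed marker levels, as means over each list, ran in part with the class II profile. The B cell mean was 5.46 to 6.07 in MMS KO, 6.10 to 6.30 in untreated KO, 5.42 to 5.66 in MMS WT and 5.81 to 6.09 in untreated WT. It was thus lower on every treated array than on any untreated array of the same genotype, and higher on every untreated KO array than on any untreated WT array. The dendritic cell mean was 5.69 to 5.91 in MMS KO, 5.91 to 6.01 in untreated KO, 5.78 to 5.91 in MMS WT and 5.71 to 5.85 in untreated WT. It likewise separated the untreated genotypes. Both means lay near the dim level of Ciita, with Blk at 4.58 and Xcr1 at 3.70 on average in untreated WT. No detection call came with the values, so signal and background cannot be told apart there. Between untreated KO and untreated WT all 8 class II probe sets had positive differences, though their median shrank without untreated KO array 1, as given above. Several of the 8 belong to the same gene, while the marker lists count 1 probe set per gene. Positive differences were also found for 11 of 11 B cell genes, 8 of 10 dendritic cell genes and 10 of 12 macrophage genes. They were found for 5 of 9 T cell genes and 3 of 10 sinusoidal endothelial genes. Limma called 0 in each of these lists, against 0.0398% of all probe sets. In the B cell and dendritic cell lists 2 each had an unadjusted p under 0.05, against 1620 of 22626 probe sets. For MMS in WT all 8 class II probe sets had negative differences. So did 9 of 11 B cell genes, 8 of 12 macrophage genes, 8 of 9 T cell genes and 10 of 10 sinusoidal endothelial genes. In contrast, 7 of 10 dendritic cell genes had positive differences for MMS in WT, with a median of 0.15. The T cell mean was 6.19 to 6.63 in MMS KO, 6.47 to 6.72 in untreated KO, 6.01 to 6.14 in MMS WT and 6.46 to 6.62 in untreated WT. In WT the treated T cell range lay wholly below the untreated one, and in KO the ranges overlapped. For macrophages the mean was 10.52 to 10.99 in MMS KO, 10.37 to 10.67 in untreated KO, 10.02 to 10.47 in MMS WT and 10.06 to 10.60 in untreated WT, and within MMS WT it was highest on array 2. Over the 12 arrays the class II profile correlated at 0.753 with the T cell mean, 0.71 with the B cell mean and 0.564 with the dendritic cell mean. It correlated at 0.49 with the sinusoidal endothelial mean, 0.335 with the macrophage mean and -0.339 with the hepatocyte mean. With the mean of the interferon gamma and Ciita repressor list it was 0.708. That mean adds inducers and repressors, so it does not measure the activity of the pathway. For deviations from group means the values were 0.732 for T cells, 0.425 for B cells, 0.468 for dendritic cells, 0.29 for macrophages and 0.407 for sinusoidal endothelium. They were 0.61 for the interferon gamma and Ciita repressor list and -0.709 for hepatocytes. All points share array, scaling and group, and the part of cell numbers in the class II differences was not tested.

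The genes whose pattern was most like the class II profile, by Pearson r over the 12 arrays among 20380 probe sets with 1 symbol, were Gimap7 (0.932), Trbv1 (0.908), Ctss (0.885), Tgfbr3 (0.866), Nfatc2ip (0.861), Themis2 (0.852), Robo3 (0.85), Cxcl9 (0.833), Cxcr6 (0.826) and Tnp1 (0.822). Cxcl9, a chemokine induced by interferon gamma, read 9.16, 9.18 and 9.48 in MMS KO, 10.69, 9.91 and 9.19 in untreated KO, 9.27, 9.20 and 8.86 in MMS WT, and 9.03, 9.48 and 9.66 in untreated WT. Its highest value was on untreated KO array 1, as its likeness to the profile entails. For Rfxank 1455371_at the most alike were Eid1 (0.935), Trim37 (0.933), Zbtb21 (0.932), Mgst1 (0.924) and Tmod3 (0.924). Zbtb21 read 8.10, 7.90 and 8.46 in MMS KO, 8.29, 8.40 and 8.04 in untreated KO, 7.92, 8.43 and 8.32 in MMS WT, and 9.50, 8.76 and 9.19 in untreated WT. Being highest on all 3 untreated WT arrays is the likeness it was picked for, so no test is given for it.

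On either side of Rfxank in the RefSeq annotation lie Ncan and Nr2c2ap, the second of which overlaps it. One of the 2 Ncan probe sets read 4.07, 4.31 and 4.66 in MMS KO, 4.82, 4.79 and 5.02 in untreated KO, 3.98, 4.09 and 4.26 in MMS WT, and 4.88, 5.12 and 4.96 in untreated WT. It fell by 0.88 ± 0.16 for MMS in WT (limma adjusted p = 0.0131) and by 0.70 ± 0.11 over both genotypes (limma adjusted p = 0.00481), with -0.11 ± 0.16 for untreated KO against untreated WT (limma adjusted p = 0.942). The other Ncan probe set gave -0.05 ± 0.20 for MMS in WT (limma adjusted p = 0.909). Both Ncan probe sets lay well below the array medians of 7.42 to 7.75, and no detection call tells such signals from background. Nr2c2ap read 9.91, 9.45 and 9.66 in MMS KO, 9.56, 9.74 and 8.92 in untreated KO, 9.95, 10.07 and 9.94 in MMS WT, and 9.55, 9.88 and 9.69 in untreated WT. It did not share the high untreated WT level of Rfxank 1455371_at, with -0.30 ± 0.20 for untreated KO against untreated WT (limma adjusted p = 0.831) and 0.28 ± 0.20 for MMS in WT (limma adjusted p = 0.438). Dexi, which overlaps Ciita, fell by 0.71 ± 0.15 for MMS in WT (limma adjusted p = 0.0233). An array separates overlapping genes only where a probe set's target lies outside the overlap, and probe positions were not used here.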

How the data were processed

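Liver RNA of 12 mice was hybridised to Affymetrix arrays, 3 animals per group. For each probe set the authors deposited a log2 value per array, made with RMA per the submitters' processing notes. The sources used here give no RMA version, chip definition or genome build. The base of the logarithm was taken from the range of the values. RMA is meant to set arrays to a common scale, which hides a shift common to most genes, and it gives no detection calls. The array medians still differed here, from 7.42 to 7.75, and counts of calls changed with median centring or quantile normalization. The number of arrays limits precision.

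Groups came from the labels, and 0 columns lacked a sample. Of 22690 probe sets, 64 controls were set aside. Through the platform annotation 20380 had 1 symbol, 691 several and 1555 none, and 20351 symbols were updated through a RefSeq gene table of GRCm38.p6, used for names and neighbours. Promoters are RefSeq's, of the same build.

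One mean per group was fitted to the 12 arrays with limma 3.58.1 in R 4.3.3 (8 residual degrees of freedom), with Benjamini-Hochberg adjustment over 22626 probe sets at 0.05, for 7 comparisons. The script was checked on simulated data. Members, companion lists and settings were chosen with earlier results of these data known. The text names all members, called genes of each list with up to 3 of the smallest p, the 10 genes most like the class II profile, the 5 most like Rfxank 1455371_at, and neighbours of the regulators. Not all genes that rule allows are printed. Other scalings, filters, variance models, array weights, a replicate block and left-out arrays were tried.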

Additional observations from a re-analysis of the deposited data

Results flagged for a closer look

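In 3 companion genes every treated array moved one way in KO and the opposite way in WT, and limma's test of the difference between the responses missed the threshold for each. Socs1, an inhibitor of cytokine signalling, was lower after MMS in KO (-0.31 ± 0.12) and higher in WT (0.16 ± 0.12), a difference between responses of -0.47 ± 0.17 (limma adjusted p = 0.204). The chemokine receptor Ccr7, in the dendritic cell list, gave -0.48 ± 0.13 in KO and 0.26 ± 0.13 in WT, a difference of -0.74 ± 0.18 (limma adjusted p = 0.13). Socs1 and Ccr7 lay at the dim level of Ciita, where signal and background cannot be told apart without detection calls. The hepatocyte enzyme Tat gave 0.82 ± 0.19 in KO and -0.61 ± 0.19 in WT, a difference of 1.43 ± 0.27 (limma adjusted p = 0.0917). Tat also had all KO arrays above all WT arrays after MMS (0.68 ± 0.19) and below them without MMS (-0.75 ± 0.19), which is the same difference of 1.43. No class II or regulator probe set was separated in opposite directions in both genotypes. Signs were opposite, with separation in KO alone, for Ciita 1421211_a_at (-0.45 in KO, 0.17 in WT) and Rfxank 1419310_s_at (0.39 in KO, -0.15 in WT). Rfxank 1425670_at separated in WT alone (-0.48 in WT, 0.04 in KO).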

How the results depend on the processing

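The median difference of the 8 class II probe sets stayed within the spread between replicates under every setting tried, and over single left-out arrays it ranged over -0.60 to -0.16 for MMS in WT, -0.37 to 0.12 for MMS in KO, 0.09 to 0.55 for untreated KO against untreated WT and 0.24 to 0.73 for MMS KO against MMS WT. Counts of called probe sets among the 15 moved more. For MMS in WT the count of 1 became 2 with probe sets below the median mean removed, 3 with quantile normalization, 3 with median centring and 4 with array weights. For MMS in KO the count of 0 became 5 with array weights and 4 without both knock-out arrays numbered 3, and ranged over 0 to 3 on leaving out single arrays, with 3 without MMS KO array 3 and 1 without untreated KO array 3. For untreated KO against untreated WT the count of 1 became 0 with quantile normalization, median centring or only the compared groups, and ranged over 0 to 1 on leaving out single arrays. For MMS KO against MMS WT the count of 0 became 1 with array weights. Animal numbers were not used to pair the samples. Of 18 same-number pairs of arrays, 7 had a correlation of deviations over 0.1, with a range of -0.475 to 0.403. The different-number pair of MMS WT array 1 and MMS KO array 3 reached 0.524. With 3 arrays per group these correlations cannot settle whether the numbers pair the animals. With the number as a replicate block, untreated KO against untreated WT gave 0 calls. Over all probe sets the calls ran over 274 to 4873 for MMS in WT, 0 to 5790 for MMS in KO, 3 to 182 for untreated KO against untreated WT, 3 to 1482 for MMS KO against MMS WT and 0 to 2344 for the difference between responses, the upper ends with array weights. Of the other values, 1963 for single probe sets kept their side of the threshold, 37 gained a call, 32 lost one and 23 moved by more than the replicate spread, and of the list counts 196 moved and 1311 did not. The cause was not tested.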
